A study of Mus musculus with 16 samples.

Results

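The 16 arrays of mouse spinal cord RNA were searched for the proteins that build microtubules and the motors that carry cargo along them in axons. Members were the probe sets, groups of short probes that together read 1 transcript, whose only platform gene symbol belongs to the tubulin, kinesin, kinesin light chain, dynein, dynactin or stathmin families, or is Map1a, Map1b, Map2, Map4, Map6, Map7 or Mapt. This gave 86 of 12422 probe sets without controls, for 61 genes. They comprised 15 tubulin genes with their gamma-tubulin complex partners, 23 kinesin genes, 13 dynein and dynactin genes, and 10 genes of proteins that bind microtubules. Klc2 and Map1a had 0 probe sets with a symbol of their own. A mean log2 intensity over all arrays above the 40th percentile of such means, 7.62, was asked of a probe set before testing, and the brightest probe set stood for its gene. Of the 61 genes, 49 were tested.

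Microtubules are tubes of alpha- and beta-tubulin dimers, nucleated by gamma-tubulin complexes, and they run the length of every axon. Kinesins mostly walk toward the plus end, which points to the axon tip, and carry vesicle precursors and mitochondria outward, whereas cytoplasmic dynein with its cofactor dynactin carries cargo back to the cell body. In the spinal cord, motor neurons with very long axons depend on this traffic, and mutations of several of these genes cause motor neuron disease or spastic paraplegia.

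By title, 8 arrays are controls of 9 and 12 months, 6 are from spastic mice of 2 to 6 months, and 2 are named B6C3Fe, a hybrid stock, from males of 1 month. The spastic mutation is recessive and lies in Glrb, the gene of the glycine receptor's beta subunit, through which inhibition reaches spinal neurons; the titles give no genotype for the controls or the B6C3Fe mice. Where titles differ only in a letter, a or b, the arrays were averaged into 1 sample, giving 4 control samples (a female and a male of 12 months and of 9 months), 5 spastic samples and 1 B6C3Fe sample. The spastic samples were a 6-month female titled M, 2 females of 2 months titled Spa1 and Spa2, a 3-month male titled sev, and a male titled 3+ months; M and sev are given as titled. The titled ages of the 3 groups do not overlap, so group and age cannot be told apart. Nothing in the labels says which samples are separate animals; p-values cover the spread between samples, which may be technical. In pieces of tissue, fewer cells of a type and less RNA per cell cannot be told apart.

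Several arrays stood apart. Glrb was at or above 12.70 on every control array and 12.92 on every B6C3Fe array, and at or below 11.11 on every spastic array, so it separated the groups as labelled. Xist was female-like, at or above 10.37, in both spastic samples titled male, against at most 5.97 in the male control and B6C3Fe samples. Array a of the 9-month females had a 3-prime to 5-prime log2 ratio of 2.72 for the Pcx control probe sets, a measure of how intact the labelled RNA is, while array b had 1.31 and no other control array exceeded 2.09. Among control arrays, array a also had the highest such ratio for Gapdh (0.99) and Actb (1.27), but the lowest for Tfrc (0.52). The Pcx ratio averaged 1.73 ± 0.22 (SD, n = 4) in control and 2.38 ± 0.38 (SD, n = 5) in spastic samples. The difference of 0.65 had an exact 2-sided permutation p of 0.0238, or 0.0952 after adjustment over the 4 ratios tested, those of Gapdh, Actb and Tfrc having exact permutation p-values of 0.770, 0.302 and 0.222. In the B6C3Fe sample the Actb log2 ratio was -2.25, against -0.45 to 1.27 on control and -0.56 to 0.71 on spastic arrays. Its Pcx ratio was 1.78. Neuronal markers were well represented, with 14 of 14 on the platform tested and summed intensities of 92200 to 110000 in control and 87800 to 116000 in spastic samples.

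Array a of the 9-month females also stood apart in the transport motors themselves. Between arrays a and b of that title, 9 of the 49 members differed by more than 1 log2 unit, as did 5.81% of all probe sets, and in 8 of the 9 array a was the lower. Kinesins made up 6 of these 8. For the dendritic microtubule protein Map2, the log2 difference a minus b was -3.63. For the kinesins Kif5c, Kif1a, Kif1b and Kif5a, the difference a minus b was -3.57, -3.23, -2.55 and -2.19. It was -1.11 for Kif3b, -1.10 for Kif5b and -0.93 for Dctn1, but 0.26 for Dync1h1. In the other 5 titles with a pair of arrays, 0 to 2 members differed by more than 1.

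**Figure D1:**
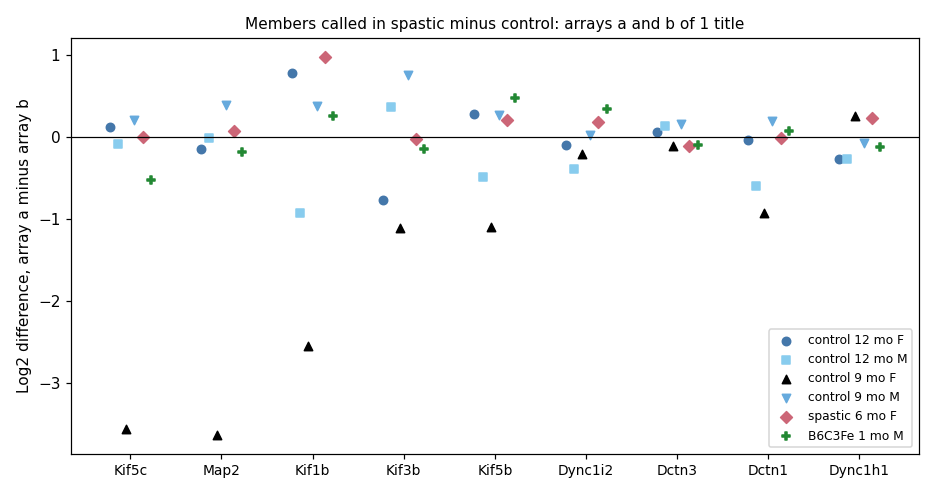
Log2 intensity of array a minus that of array b (y axis) for the 9 members called in spastic minus control (x axis), 1 point for each of the 6 titles with a pair of arrays. The black triangles of the 9-month female controls lie far below 0 for Kif5c (-3.57), Map2 (-3.63) and Kif1b (-2.55), and every point of Dync1h1 lies near 0.

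Spastic and control cords were compared for the whole set. Kif5c, Kif1b, Kif3b and Kif5b, all motors of outward transport, fell in spastic samples, as did Map2 and the dynein intermediate chain Dync1i2. The dynein heavy chain Dync1h1 and the dynactin subunits Dctn1 and Dctn3 rose. Other motors of outward transport, Kif1a, Kif3a, Kif3c and Kif5a, were not called, with log2 differences of 0.26, -0.84, 0.09 and -0.49. Kif5c, Kif3b and Map2 passed the filter with spastic means under it. The calls of Kif5b, Dctn3 and Dync1i2 were each lost in at least 1 fit that left out 1 sample. No tubulin was called. Log2 differences of the members that fell ran from -0.49 to -2.87, and those of the members that rose from 0.30 to 0.86.

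In all, 9 of 49 tested members were called at an adjusted p under 0.05, or 18.4%, beside 19.8% of the 6425 probe sets tested; a share near that background is not a result about the set. Of these, 3 were higher, where 9.82% of all probe sets were higher, and 6 were lower, where 9.93% were. The median log2 difference was -0.01 over the members and -0.02 over all probe sets, and 40 of the 49 members differed by less than 0.5. By role, 4 of 15 kinesins were lower and 0 higher, 3 of 11 dynein and dynactin genes were higher and 1 lower, 1 of 9 binding proteins was lower, and 0 of 14 tubulins were called by limma. An unadjusted p under 0.05 was found for 3 of the 14 tubulins and for 2202 of the 6425 probe sets. Median log2 differences were -0.44 for kinesins, 0.02 for dynein and dynactin, 0.03 for tubulins and -0.02 for binding proteins. Of the kinesins 12 of 15 lay below 0, as did 3385 of all 6425 probe sets. Kif5c, Kif3b, Kif16b and Map2 passed the filter with a spastic mean under it, so these counts and medians only describe the genes tested. Control and spastic samples did not overlap for 12 of 49 members, 4 with spastic above and 8 with spastic below, and for 19.5% of all probe sets.

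The size of this count moved with the samples and terms used. With the Pcx ratio as a covariate limma called 0 members, and 9 of all probe sets where 1269 were called without it. The ratio itself averaged 1.73 in control and 2.38 in spastic samples, so this fit cannot tell ratio and group apart. Without both spastic samples titled male, 3 members were called, Kif5c, Dctn1 and Dync1h1, and among samples titled female Dync1h1 was the 1 member called, in a fit where Kif5c fell below the filter. Intensities under a floor of 60.9, which is 5.93 in log2 and the 20th percentile of the table, were set to it, so differences of dim members can be understated.

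**Figure D2:**
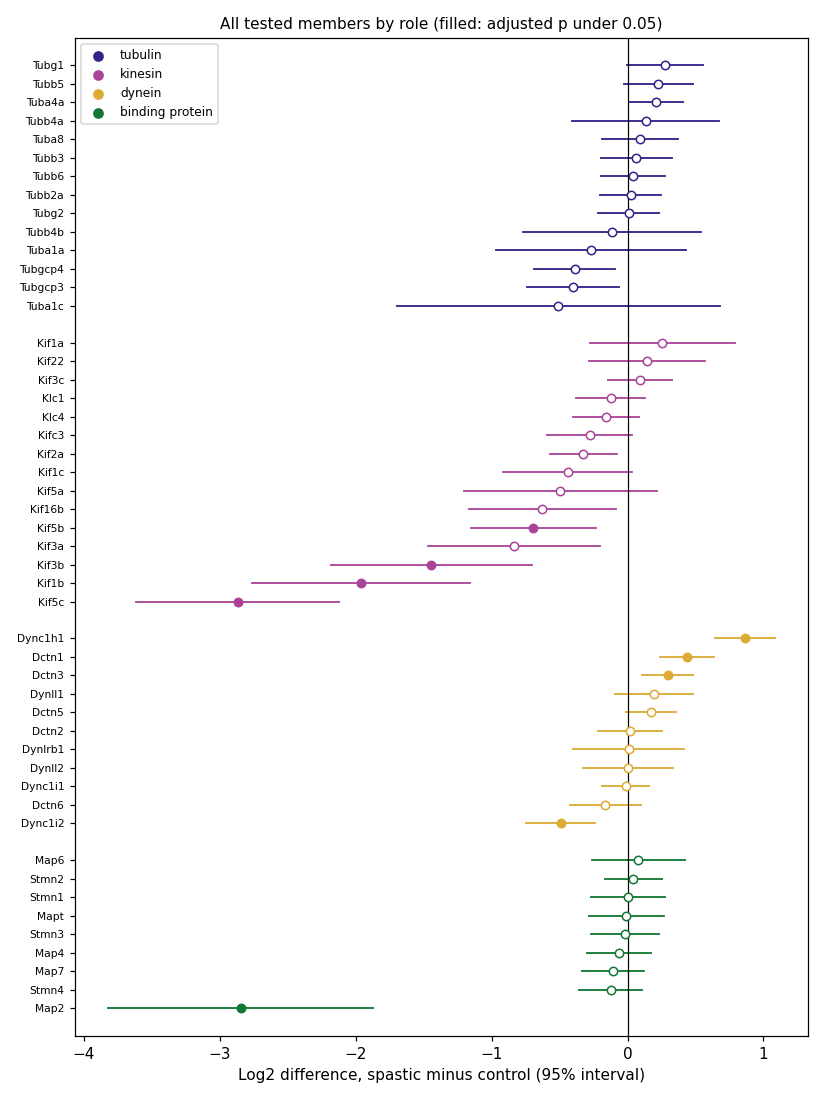
Log2 difference, spastic minus control (x axis), with its 95% interval for each of the 49 tested members (y axis), coloured by role; filled points have an adjusted p under 0.05. Kinesin points spread down to -2.87, tubulin points lie around 0, and Map2 (-2.85) is far from the other binding proteins.

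The 4 promoters printed here belong to the 3 members that fell most and the 1 that rose most, so that genes that moved in each direction can be read side by side. Each line gives the 250 bases before the start of the gene, 5′ to 3′ along the strand of the gene, from RefSeq's table for GRCm38.p6, with capitals for a GC box (GGGCGG on either strand), the letters bound by Sp factors at many promoters. The windows are chr2:49619036-49619285 on the plus strand for Kif5c, chr1:66175079-66175328 on the plus strand for Map2, chr4:149307734-149307983 on the minus strand for Kif1b, and chr12:110601145-110601394 on the plus strand for Dync1h1. The table held 45 of the 61 genes, and for Kif1b it held 2 starts, the first of which is shown.
Kif5c: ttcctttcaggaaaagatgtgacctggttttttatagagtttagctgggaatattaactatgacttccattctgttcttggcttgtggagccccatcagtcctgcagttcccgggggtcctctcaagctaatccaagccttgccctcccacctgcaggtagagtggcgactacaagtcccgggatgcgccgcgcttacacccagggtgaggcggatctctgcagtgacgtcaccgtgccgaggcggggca
Map2: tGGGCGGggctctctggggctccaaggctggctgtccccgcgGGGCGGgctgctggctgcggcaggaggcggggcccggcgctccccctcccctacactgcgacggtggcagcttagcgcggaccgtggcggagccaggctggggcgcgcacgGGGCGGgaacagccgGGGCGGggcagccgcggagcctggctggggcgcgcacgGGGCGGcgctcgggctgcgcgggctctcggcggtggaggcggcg
Kif1b: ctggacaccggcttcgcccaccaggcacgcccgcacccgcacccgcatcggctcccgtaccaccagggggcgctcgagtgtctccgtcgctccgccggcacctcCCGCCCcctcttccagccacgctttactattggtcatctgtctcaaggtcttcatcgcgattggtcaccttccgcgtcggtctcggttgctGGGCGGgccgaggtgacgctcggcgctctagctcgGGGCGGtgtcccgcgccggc
Dync1h1: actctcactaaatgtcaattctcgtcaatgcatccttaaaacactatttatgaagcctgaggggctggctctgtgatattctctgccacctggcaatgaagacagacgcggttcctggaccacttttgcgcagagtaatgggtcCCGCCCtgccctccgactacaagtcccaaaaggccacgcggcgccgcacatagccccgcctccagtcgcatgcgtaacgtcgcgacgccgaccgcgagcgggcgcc

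GC boxes numbered 0 in the window of Kif5c, 5 in that of Map2, 3 in that of Kif1b and 1 in that of Dync1h1, and 32.7% of all 32851 promoter windows of this length held at least 1. CCAAT, searched on both strands, had 2 matches in the window of Kif1b and none in the other windows shown, beside 33.8% of all windows with a match. TATAAA, searched on both strands too, had 1 match, beside 12.4% of all windows. It lies in the window of Kif5c on the strand opposite to the gene, and reads tttata in the line printed. No matches of different motifs overlapped in these windows. The share of G and C was 55.2% for Kif5c, 81.2% for Map2, 70% for Kif1b and 58% for Dync1h1, against a median of 52.4% over all windows. These are letters in a window and nothing was measured there.

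Among the kinesins, the 3 heavy chains of kinesin-1, which carries synaptic vesicle precursors, mitochondria and neurofilament proteins, were all measured. In the control samples, ordered here and below as 12-month female, 12-month male, 9-month female and 9-month male, Kif5c, the mainly neuronal heavy chain, read 9.48, 9.53, 7.71 and 9.46 on the log2 scale. In the spastic samples, ordered as M, Spa1, sev, 3+ and Spa2, it read 5.93, 5.93, 6.64, 5.93 and 6.19, and in the B6C3Fe sample 8.48. Every spastic sample lay below every control sample, and 4 of the 6 spastic arrays were at the floor, as was array a of the 9-month females. The log2 difference was -2.87 (SE 0.34, 95% interval -3.62 to -2.12, adjusted p = 0.000871), a 7.30-fold drop on the floored scale. Kif5c passed the filter of 7.62 through the control and B6C3Fe samples, every spastic sample being under it, and with the floor at the 10th percentile it was not tested. The difference was -3.36 without array a of the 9-month females, and -2.02 (adjusted p = 0.0678) with the Pcx ratio as a covariate. Controls were the less even group, at 9.05 ± 0.89 (SD, n = 4), against 6.12 ± 0.31 (SD, n = 5).

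Kif5b, the heavy chain made in most cell types, was measured with 1 probe set. Its control samples read 11.79, 12.19, 11.46 and 11.62, and its spastic samples 11.36, 10.92, 11.56, 10.50 and 10.97, with B6C3Fe at 11.85. The groups overlapped, since the sev sample lay above the 9-month female control. The log2 difference was -0.69 (SE 0.21, adjusted p = 0.0388), a 1.62-fold drop. This call was lost when any of 6 samples was left out, with adjusted p-values of 0.110 without the 12-month female control, 0.110 without the 12-month male, 0.0570 without the 9-month male, 0.0757 without Spa1, 0.0582 without Spa2 and 0.0725 without the 3+ sample.

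Kif5a, the third heavy chain, a hereditary spastic paraplegia gene, was not called. Its tested probe set read 10.63, 10.72, 9.41 and 10.34 in control and 9.04, 9.59, 10.34, 9.33 and 10.46 in spastic samples, a log2 difference of -0.49 (95% interval -1.21 to 0.22, adjusted p = 0.309). The M and 3+ samples lay below every control, and the other 3 spastic samples lay within the control range. A second probe set of Kif5a below the filter differed by -0.34. The kinesin light chain Klc1, which links kinesin-1 to cargo, differed by -0.12 (95% interval -0.38 to 0.13), and its other 2 probe sets by 0.02 and 0.01.

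The kinesin-3 motors Kif1a and Kif1b carry synaptic vesicle precursors, and a form of Kif1b carries mitochondria. Kif1b read 10.19, 10.45, 8.76 and 10.03 in control samples, 7.21, 7.35, 8.29, 7.64 and 8.75 in spastic samples, and 8.99 in B6C3Fe. Spa2, the highest spastic sample, lay just under the low 9-month female control, and the other 3 controls were at or above 10.03. The log2 difference was -1.96 (SE 0.36, 95% interval -2.76 to -1.16, adjusted p = 0.00524), a 3.90-fold drop, and -0.98 (adjusted p = 0.270) with the Pcx ratio. A second, dimmer probe set of Kif1b that did not pass the filter read 6.77 to 7.59 in control and 5.93 to 6.27 in spastic samples.

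Kif1a behaved otherwise. Its control samples read 10.68, 10.47, 9.19 and 10.58 and its spastic samples 10.17, 10.39, 10.65, 10.47 and 10.56, with B6C3Fe at 10.53. The groups overlapped, and the 9-month female control was the lowest sample. The log2 difference was 0.26 (95% interval -0.28 to 0.79, adjusted p = 0.494), and between -0.11 and 0.53 when each sample was left out in turn.

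Kinesin-2, a motor of axons and cilia, is built from Kif3a with Kif3b or Kif3c. Kif3b read 8.98, 8.81, 8.24 and 8.62 in control samples, 7.32, 7.73, 7.49, 5.93 and 7.85 in spastic samples and 8.84 in B6C3Fe. All spastic samples lay below all control samples, and the 3+ sample was at the floor. The fitted log2 difference was -1.44 (SE 0.34, adjusted p = 0.0143), a 2.72-fold drop, and -1.06 (adjusted p = 0.0152) without the 3+ sample. With the Pcx ratio as a covariate it was -0.33 (adjusted p = 0.601), and with no filter on dim probe sets the adjusted p was 0.0617. The spastic mean of 7.26 is under the filter, which Kif3b passed through the control and B6C3Fe samples.

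For Kif3a the values pointed the same way without a call. Control samples read 9.06, 8.91, 8.23 and 8.56, and spastic samples 7.34, 8.0, 8.11, 7.30 and 8.56, a log2 difference of -0.84 (95% interval -1.47 to -0.20, adjusted p = 0.0625). Spa2 was at the level of the 9-month male control and the others were lower than every control. Kif3a was called without the 9-month female control (-1.06, adjusted p = 0.0368) and without Spa2 (adjusted p = 0.0253). Its second probe set, below the filter, differed by -0.64. Kif3c, whose probe set read 10.09 to 10.36 in control and 10.20 to 10.55 in spastic samples, differed by 0.09 (95% interval -0.14 to 0.33).

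The other 6 kinesins tested, Kif16b, Kif1c, Kif22, Kif2a, Kifc3 and Klc4, had log2 differences from -0.63 to 0.14, and none was called. Kif16b, a motor of early endosomes, and Kif2a, which takes microtubules apart at their ends, did not overlap between the groups, at -0.63 (adjusted p = 0.0951) and -0.33 (adjusted p = 0.0650).

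**Figure D3:**
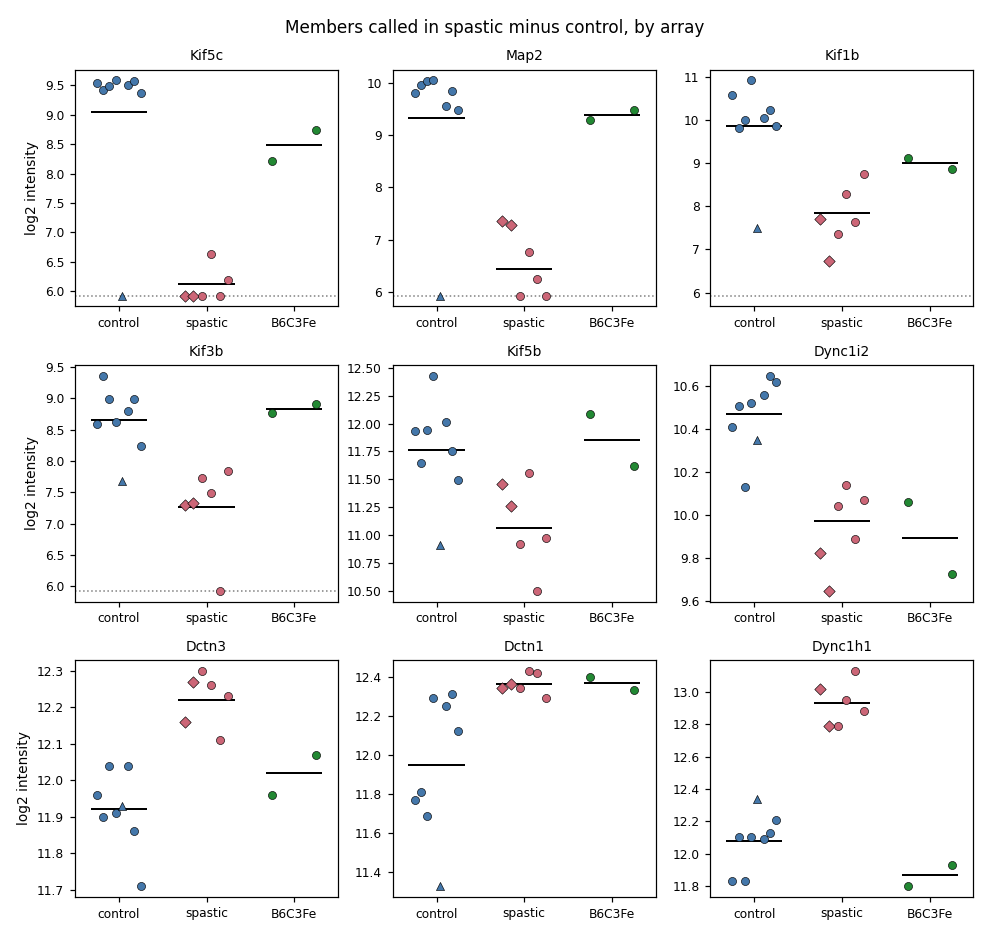
Log2 intensity (y axis) on each array for the 9 called members, in control, spastic and B6C3Fe arrays; bars are means over samples, triangles mark array a of the 9-month females, diamonds the arrays titled M, and the dotted line the floor. For Kif5c 4 spastic arrays and the triangle lie on the floor, while for Dync1h1 every spastic array (12.79 to 13.13) lies above every other array.

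On the inward side, Dync1h1, the heavy chain that holds the motor domain of cytoplasmic dynein, gave the clearest separation. It read 11.96, 11.96, 12.21 and 12.17 in control samples, 12.90, 12.79, 12.95, 13.13 and 12.88 in spastic samples, and 11.87 in B6C3Fe. Single control arrays ranged from 11.83 to 12.34 and single spastic arrays from 12.79 to 13.13, so no array of 1 group reached the other. Spastic minus control, the log2 difference came to 0.86 (SE 0.10, 95% interval 0.64 to 1.09, adjusted p = 0.000857), a 1.82-fold rise. Leaving out each sample in turn gave 0.81 to 0.94, with every call kept, and the Pcx covariate gave 0.70 (adjusted p = 0.0678).

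The intermediate chains, which bind dynactin and cargo, were read by a probe set each. Dync1i2 read 10.46, 10.33, 10.45 and 10.63 in control samples, 9.73, 10.04, 10.14, 9.89 and 10.07 in spastic samples and 9.89 in B6C3Fe. All spastic samples lay below the controls, and B6C3Fe lay among the spastic samples. The fitted log2 difference was -0.49 (SE 0.12, adjusted p = 0.0145), a 1.41-fold drop, and the adjusted p was 0.0501 without the 9-month male control. Dync1i1, the neuronal intermediate chain, lay between 12.21 and 12.29 in every control and spastic sample, a log2 difference of -0.01 (95% interval -0.19 to 0.16). The light chain Dynll1, which also serves as a hub for many other proteins, differed by 0.19 (95% interval -0.10 to 0.48).

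In dynactin, the complex that tethers dynein to cargo and microtubule, Dctn1 encodes the p150 subunit that touches both. Its control samples read 11.79, 11.99, 11.79 and 12.21, its spastic samples 12.35, 12.34, 12.43, 12.42 and 12.29, and B6C3Fe 12.37. The spastic samples were close together and just above the 9-month male control, and B6C3Fe was among them. Spastic minus control, the log2 difference came to 0.44 (SE 0.09, adjusted p = 0.00807), a 1.35-fold rise. It was 0.31 (adjusted p = 0.0559) without array a of the 9-month females, the lowest array for this gene.

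Dctn3, a small subunit of the dynactin shoulder, read 11.93, 11.97, 11.98 and 11.78 in control and 12.21, 12.30, 12.26, 12.11 and 12.23 in spastic samples, with B6C3Fe at 12.02. The groups did not overlap and the log2 difference was small, 0.30 (SE 0.09, adjusted p = 0.0330), a 1.23-fold rise. This call was lost when any of 5 samples was left out, with adjusted p-values of 0.0906 without the 12-month female control, 0.0539 without the 9-month female, 0.0973 without the 9-month male, 0.0814 without sev and 0.0716 without Spa1. The other 5 tested genes of this role, Dctn2, Dctn5, Dctn6, Dynll2 and Dynlrb1, had differences from -0.16 to 0.17 and none was called, although Dctn5 did not overlap (11.05 to 11.20 in control, 11.20 to 11.40 in spastic samples).

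Among the tubulins, the track itself, no member passed the test. The log2 differences of the 14 tested genes ran from -0.51 for Tuba1c to 0.27 for Tubg1, and 13 were under 0.5 in size. Of the 21 tubulin probe sets, 8 carry the suffix letter f, which the manufacturer gives to probe sets that match a family of sequences, so signals of the near-identical alpha- and beta-tubulins may be mixed. The same letter is on 3 kinesin probe sets, 3 of dynein and dynactin and 1 of the binding proteins. Those that stood for Dynll1 and Dctn2 are among them.

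Tuba1a, the main alpha-tubulin of neurons, read 14.15, 13.63, 13.88 and 14.36 in control samples and 15.03, 13.32, 13.33, 13.71 and 13.42 in spastic samples, with B6C3Fe at 13.79. The M sample was above every other sample, and 3 of the other 4 spastic samples were below every control. The fitted log2 difference was -0.27 (95% interval -0.97 to 0.43, adjusted p = 0.594), and without the M sample Tuba1a was called at -0.56 (adjusted p = 0.0380). Its second probe set differed by -0.04.

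The M sample stood out in more than Tuba1a. Against the mean of the other 4 spastic samples it was 7.21-fold higher for Tuba1c, 3.0-fold for Tuba1a, 2.16-fold for Map2 and 2.14-fold for Tubb4a. These 4 of 49 members differed by more than 1 log2 unit from that mean, as did 2.29% of all probe sets. The highest intensity on its arrays was 63072, against 30445 on any other array.

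Tuba4a, an alpha-tubulin of mature neurons linked to motor neuron disease, read 11.51, 11.69, 11.62 and 11.58 in control and 11.95, 11.80, 11.83, 11.69 and 11.80 in spastic samples, a log2 difference of 0.21 (95% interval 0.02 to 0.41, adjusted p = 0.120). Its second probe set was at the floor on all but 1 array. Tubg1, the gamma-tubulin that seeds microtubules, differed by 0.27 (95% interval -0.01 to 0.55, adjusted p = 0.154) and was called without the 9-month male control (0.40, adjusted p = 0.0386). Tubgcp3 and Tubgcp4, partners of gamma-tubulin in its ring complex, differed by -0.40 (adjusted p = 0.0881) and -0.39 (adjusted p = 0.0653).

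Of the beta-tubulins, Tubb5, made in most tissues, differed by 0.23 (95% interval -0.03 to 0.48), and its second probe set by 0.18. Tubb2a differed by 0.02 (95% interval -0.20 to 0.25) and by 0.06 with its second probe set, and Tubb4a, a brain isotype also made by oligodendrocytes, by 0.13 (95% interval -0.41 to 0.68). The neuronal isotype Tubb3 differed by 0.07 (95% interval -0.20 to 0.33). Its 2 probe sets did not read alike: the dimmer, with 11.37 to 12.05 in control and 12.15 to 12.58 in spastic samples, differed by 0.51 (adjusted p = 0.0333 where every probe set was tested).

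**Figure D4:**
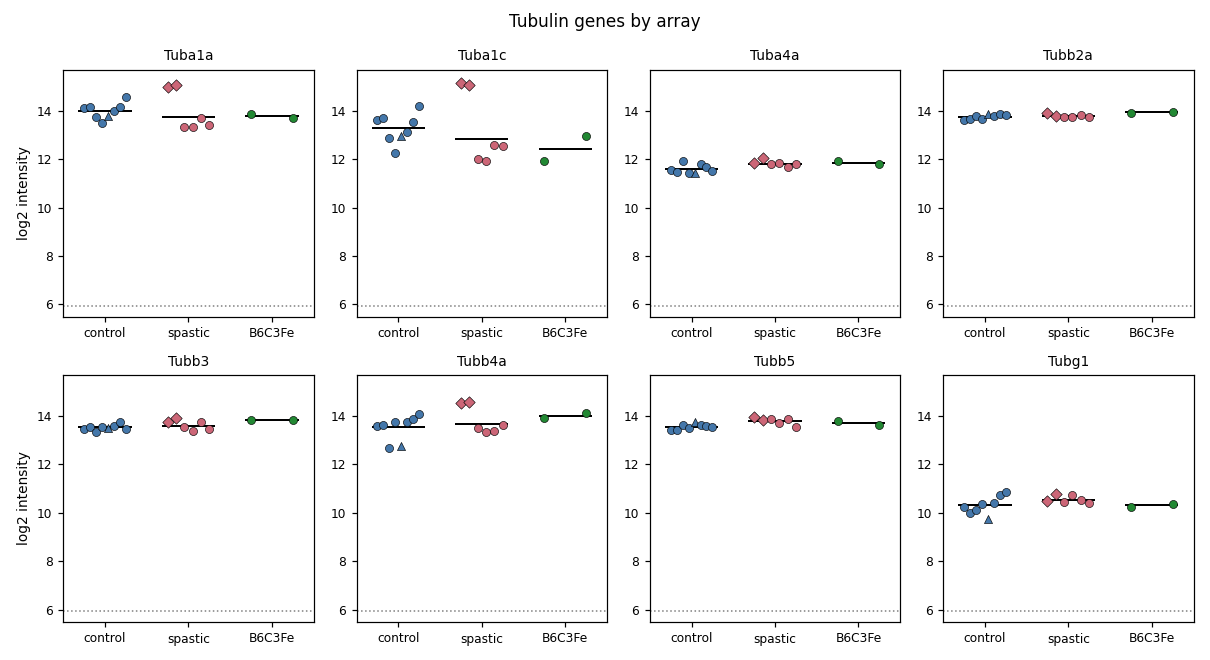
Log2 intensity (y axis, the same range in each panel) of 8 tubulin genes on each control, spastic and B6C3Fe array; bars are means over samples, triangles array a of the 9-month females, diamonds the arrays titled M, and the dotted line the floor. The diamonds lie above the other spastic arrays for Tuba1a, Tuba1c and Tubb4a, while the groups overlap for Tubb2a and Tubb3.

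Of the proteins that bind and shape microtubules, Map2 was the 1 called of 9 tested. Map2, which spaces microtubules in dendrites and cell bodies of neurons, read 9.88, 10.04, 7.74 and 9.67 in control samples, 7.32, 5.93, 6.76, 6.24 and 5.93 in spastic samples and 9.38 in B6C3Fe. Every spastic sample lay below every control, both 2-month females were at the floor, and so was array a of the 9-month females. Spastic minus control, the log2 difference came to -2.85 (SE 0.44, 95% interval -3.82 to -1.87, adjusted p = 0.00255), a 7.19-fold drop on the floored scale. Map2, too, passed the filter of 7.62 through the control and B6C3Fe samples, with every spastic sample under it. The difference was -3.34 without array a of the 9-month females, -2.42 (adjusted p = 0.0511) without both spastic samples titled male, and -2.39 (adjusted p = 0.123) with the Pcx ratio.

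Mapt, the axonal protein tau, read 12.92 to 13.31 in control and 12.91 to 13.31 in spastic samples, a log2 difference of -0.01 (95% interval -0.29 to 0.27), and its other 2 probe sets differed by -0.21 and -0.16. Map4, the form found in most cell types, differed by -0.06 (95% interval -0.30 to 0.17), and Map6, which makes microtubules stable to cold, by 0.08 (95% interval -0.26 to 0.42). The dimmer probe set of Map4 went the other way, with 7.33 to 7.88 in control and 7.92 to 8.32 in spastic samples, at 0.57 (adjusted p = 0.0398 where every probe set was tested).

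The stathmins, which bind free tubulin dimers, overlapped between the groups. Stmn1 differed by 0.00 (95% interval -0.27 to 0.28), Stmn2, a protein of growing axons, by 0.04 (95% interval -0.17 to 0.25), Stmn3 by -0.02 (95% interval -0.27 to 0.23) and Stmn4 by -0.12 (95% interval -0.36 to 0.11). The further probe sets of Stmn2 and Stmn3 above the filter differed by 0.01 and -0.27, and those below it, 1 of Stmn1 and 1 of Stmn2, by -0.02 and -0.23.

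The B6C3Fe sample gave a second reference, of 1 month of age, whose relation to the stock of the other mice the titles do not give; it is 1 sample, assumed to vary like the others, and this comparison shares the spastic samples with the one above. Dync1h1 was higher in spastic mice here too, by 1.12 (SE 0.18, adjusted p = 0.0163), and it was the 1 member called of 49, or 2.04%, beside 2.05% of all probe sets. Map2 differed from B6C3Fe by -2.63 (adjusted p = 0.103), Kif5c by -2.02 (adjusted p = 0.103), Kif3b by -1.85 (adjusted p = 0.128) and Kif1b by -0.87 (adjusted p = 0.459), and none of these was called. For Dctn1 and Dync1i2 the B6C3Fe sample lay within the spastic range, with differences of 0.11 for each (adjusted p = 0.71 and 0.782). Without the 9-month female control sample 3 members were called in this comparison, 1 of them Dync1h1. Without both spastic samples titled male 0 were called.

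Between B6C3Fe and control, 0 of 49 members were called by limma, beside 0.389% of all probe sets. An unadjusted p under 0.05 was found for 4 of 49 members and for 967 of 6425 probe sets. The tested probe set of Mapt read 13.88 in B6C3Fe, above all control and spastic samples, a difference from control of 0.81 (adjusted p = 0.124). Its other probe sets differed by 0.51 and -0.55, and the latter read 10.91 in B6C3Fe, below all control and spastic samples. Dctn6, a subunit of dynactin's pointed end, read 9.88 there, below all other samples, a difference from control of -0.88 (adjusted p = 0.0942).

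Within the controls, age made no called difference. Between 12 and 9 months 0 of 49 members were called by limma and 0 had an unadjusted p under 0.05, and of all probe sets 0% were called, 346 with an unadjusted p under 0.05. Map2 differed by 1.26, and Kif5c and Kif1b each by 0.92 (all adjusted p = 0.908), with the 9-month female control low in each. Between the sample titled sev and the other spastic samples 0 members were called by limma, beside 0.0156% of all probe sets, that is, 1. An unadjusted p under 0.05 was found for 3 of 49 members, Map6, Dctn6 and Dynlrb1, and for 257 of 6425 probe sets. The sev group is 1 sample, so the other samples supply the spread. For the kinesins, 14 of 15 fitted log2 differences, sev minus the other spastic samples, were above 0, with a median of 0.30. Of all probe sets, 3458 of 6425 were above 0, with a median of 0.03. The fit held a term for titled sex, although Xist was female-like in both spastic samples titled male. Kif1a, the 1 kinesin below 0 in the fit, read 10.65 in sev, above every other spastic sample.

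The proteins that regulate microtubules or couple motors to cargo, 72 listed genes outside the member families, were counted in the same way. Of 38 tested, 5 rose and 4 fell in spastic samples, beside 9.82% higher and 9.93% lower of all probe sets, with a median log2 difference of 0.03 against -0.02 over all probe sets. The plus-end protein Mapre3 rose by 0.85 (SE 0.15), the neuronal kinase Cdk5 by 0.46 (SE 0.09), Numa1, which works with dynein at spindle poles, by 0.43 (SE 0.11) and the dynein regulator Ndel1 by 0.36 (SE 0.09). Trak2, the adaptor that couples mitochondria to kinesin-1 and dynein, showed the largest drop of the list, at -1.74 (SE 0.24, adjusted p = 0.00185). Tbce, a tubulin folding cofactor whose mutation causes motor neuron disease in mice, differed by -0.55 (SE 0.13), and the plus-end proteins Mapre2 and Mapre1 by -0.50 (SE 0.11) and -0.31 (SE 0.08).

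Markers of cell types were counted in the same way, beside 9.82% higher and 9.93% lower of all probe sets. Of 14 neuronal markers 3 rose, Sncb at 0.83, Stx1a at 0.53 and Nefm at 0.39, and 3 fell, Syt1 at -2.83, Nefl at -1.10 and Syn2 at -0.53. Of 3 motor neuron markers 2 rose. Endothelial markers rose for 6 of 7, with summed intensities of 3090 to 3850 in control and 6670 to 8550 in spastic samples. In spastic samples 2 of 7 astrocyte, 1 of 7 oligodendrocyte, 2 of 7 microglial and 2 of 8 skeletal muscle markers fell and none rose. Their median log2 differences were -0.35, -0.12, -0.02 and -0.89, in that order, against -0.02 over all probe sets. The sums ran from 48000 to 63200 in control and 34100 to 65400 in spastic samples for astrocytes, from 49800 to 60900 and 43200 to 68800 for oligodendrocytes, from 12200 to 14800 and 8800 to 14400 for microglia, and from 5400 to 10500 and 1410 to 10700 for muscle. The fallen markers Ugt8a (oligodendrocyte), Myh4 and Actn3 (muscle) and Syt1 (neuronal) passed the filter with spastic means under it. These means were 6.84, 6.72, 7.45 and 6.68. Cdh5, an endothelial marker that rose, passed it through the spastic samples, with control (7.41) and B6C3Fe (7.60) under it. The marker counts and medians therefore only describe the genes tested. None of 6 proliferation, 2 ependymal or 2 Schwann cell markers was called. Their part in the motor differences was not tested.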

How the data were processed

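RNA of mouse spinal cord was hybridised to 16 single-colour arrays. The authors' deposited values are linear intensities, 1 per probe set; for the software, the sources used here give no name. With 2% trimmed from both ends, every array's mean lay between 800.4 and 800.5, so the intensities were taken as scaled and were not normalized again; array medians were 289 to 383.6, and 14.7% to 24.1% of values were at the floor. Precision is limited by the number of arrays.

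The floor was the 20th percentile of all values, and log2 was taken after it. The 66 control probe sets were left out. Gene names are those of GEO's platform annotation, with 10833 probe sets of 1 symbol, 396 of several and 1193 of none. Of these, 10817 matched the RefSeq table of GRCm38.p6 by Entrez ID, and 0 symbols changed. Testing kept 6425 probe sets, 5692 with a symbol.

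Differences were fitted with limma 3.58.1 in R 4.3.3 (lmFit, eBayes with a trend) on 10 samples, with terms for group and titled sex and a spread shared by all groups; tests were 2-sided with Benjamini-Hochberg adjustment over all 6425. The fit was tested on simulated data. Named members were all those called in spastic minus control and a written list of tubulins, motors and binding proteins, called or not; of the regulators, up to 4 called in each direction by size; the few others with values were chosen after these were seen. The members, lists and tests were chosen with earlier results of these data known. Alternatives were other floors and filters, quantile normalization, other ways of using arrays a and b, every probe set, no trend, no sex term, other uses of the B6C3Fe arrays, fits without doubtful samples or arrays, the Pcx covariate, and leaving out each sample.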

Additional observations from a re-analysis of the deposited data

Results flagged for a closer look

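Sample values of the named genes were searched for 1 sample far from the rest of its group, and 6 of the 60 gene and group pairs met this mark, which chance sets off in about 1 in 20. In the 9-month female control, Kif1a read 9.19 where the other controls read 10.47 to 10.68. Kif5c read 7.71 there against 9.46 to 9.53, and Map2 read 7.74 against 9.67 to 10.04. The M sample of the spastic group read 15.03 for Tuba1a against 13.32 to 13.71 in the other spastic samples, and 14.56 for Tubb4a against 13.33 to 13.64. Kif3b read 5.93, the floor, in the 3+ spastic sample against 7.32 to 7.85.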

How the results depend on the processing

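Members called in spastic minus control numbered 9. They numbered 5 with a 60th percentile filter, which tests fewer genes, 15 with every array as its own replicate, 14 with the titled sample as a random block, 2 with letter a arrays alone, 3 without both spastic samples titled male, 1 among samples titled female, 5 with B6C3Fe counted as control beside a log2 age term, and 0 with the Pcx covariate; leaving out each sample gave 7 to 11. Against B6C3Fe the count of 1 became 2 with quantile normalization, 5 with every array, 2 with the random block, 0 with letter a arrays, 0 without the samples titled male, 3 without array a of the 9-month females, 0 with the Pcx covariate, and 1 to 3 when samples were left out. For B6C3Fe minus control the count of 0 became 3 with every array and 2 with the random block. The letter a or b as a replicate block gave 14, 3 and 3 calls in these comparisons. The 6 titles with a pair of arrays gave 15 correlations of a minus b differences from -0.04 to 0.16, with 1 over 0.1. These low values show little that the titles share by letter, and cannot say what the letter stands for. The 3-prime to 5-prime difference was -0.065 for Gapdh, -0.32 for Actb and -0.51 for Tfrc. Where no construction shows it, the cause was not tested. No fit without the B6C3Fe sample gives its own comparisons. Of the 9 called members 6 kept the call in every leave-one-out fit (Kif5c, Map2, Kif1b, Kif3b, Dctn1 and Dync1h1), and 0 kept it in every alternative; 0 reversed. Of 21 named members not called, 15 changed sign in at least 1 alternative and 4 were called in at least 1 (Kif3a, Tuba1a, Tubb5 and Tubg1). Values at the floor limit Kif5c, Map2 and Kif3b. The differences of Kif5c and Map2 are understated. That of Kif3b leans on 1 spastic array at the floor, and was -1.72 with the floor at the 10th percentile and -0.93 with it at the 40th.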

Other observations

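Of the 12 member genes below the filter, 8 are kinesins, among them the dividing-cell motors Kif11, Kif20a, Kif23, Kif2c and Kif4, and the others are Map1b, Dynlt1b, Dynlt3 and the pseudogene Tubb2a-ps2. Map1b, a microtubule protein of growing and adult axons, read 8.48, 7.59, 7.05 and 8.05 in control samples and 5.95, 5.93, 6.55, 5.93 and 7.20 in spastic samples, with B6C3Fe at 7.46. Its 3 lowest spastic samples were at or near the floor, the groups overlapped through Spa2, and the difference of -1.49 was not tested. Dynlt3, a dynein light chain, read 6.37 to 7.49 in control and 5.93 to 6.25 in spastic samples. Kifc2, a minus-end motor of dendrites, had a probe set with 6.43 to 6.91 in control and 7.0 to 7.64 in spastic samples. These values were chosen after they were seen.

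The dimmer probe set of Dynll2, a light chain shared by dynein and myosin V, read 10.67 to 11.56 in control and 9.84 to 11.13 in spastic samples, a difference of -0.87 (adjusted p = 0.0411 where every probe set was tested), while the brighter differed by 0.00. Together with Tubb3 and Map4, this made 3 genes called by a dimmer probe set and not by the one that stood for the gene.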
